A study of Homo sapiens with 12 samples.

Results

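Apoptosis genes of the BCL2, caspase and death receptor families were followed in H358 cells, a human lung adenocarcinoma line. The genes were chosen by function: 38 symbols were taken, and every gene probe whose RefSeq accession maps to one of them was kept. This gave 62 probes of the 41000 gene probes on the array, with all 38 genes on at least 1 probe. Of these, 56 probes of 36 genes were bright enough to be tested. For APAF1, the scaffold of the apoptosome, and BCL2, the founding anti-apoptotic protein of the family, no probe could be tested.

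Total RNA of the H358/Tet-On/SRSF2 clone was hybridised to 12 one-colour Agilent 44 k arrays. In this clone a Tet-responsive promoter controls SRSF2, an SR protein that acts in pre-mRNA splicing. For 6 arrays the cells were labelled control, with no treatment given in the labels, and for 6 they were labelled SRSF2 over-expression, which 24 hours with 1 µg/mL doxycycline were meant to induce. The sources used here do not say whether control cells were given the drug, so its effects and those of the transgene cannot be told apart. All cells come from 1 clone. Per the study's supplement, the 6 arrays of a condition are 3 labelings hybridised to 2 arrays each, so they are not 6 independent samples, and which arrays share a labeling is not given in the labels. The p-values measure the spread between arrays, which may be technical, and the calls that were lost when the 2 arrays of a condition on each slide were averaged are marked below.

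Cells die by apoptosis along 2 routes that share their last steps. In the mitochondrial route, BH3-only proteins free or activate the effectors BAX and BAK1, which are held in check by anti-apoptotic relatives such as MCL1, and the cytochrome c that leaks out drives the apoptosome to activate CASP9. In the receptor route, ligand-bound death receptors recruit FADD and CASP8, and the IAP proteins restrain the caspases of both routes. Many of these genes are spliced into forms with opposite effects, so the probes of a gene are given one by one. Where each probe lies in its transcripts was not analysed here, and a probe may read several forms.

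The arrays lay on 3 slides, each with 2 arrays of both conditions. Between 54.2% and 68.0% of the gene spots were well above background, and no spot was saturated. All 10 probes of the 7 epithelial marker genes (EPCAM, CDH1, CLDN4 and 4 keratins) were well above background on every array, and the 3 fibroblast marker probes were so on none. Of the other markers, probes of CD14 and PECAM1 were also well above background on all 12 arrays. The signals below are log2 values minus that of the array's 75th percentile, and each log2 fold change is the group labelled SRSF2 over-expression minus control. In bulk RNA, fewer cells that express a gene and less of its RNA in each cell cannot be told apart.

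The SRSF2 probe was examined first and went against the label. Its signal lay between 3.73 and 4.02 in control (median 3.94) and from 2.28 to 2.51 under the SRSF2 over-expression label (median 2.49), a log2 fold change of -1.46 ± 0.06 (SE, adjusted p = 1.19e-09). The arrays did not overlap, and the exact two-sided permutation p of 0.00216 was the smallest that 6 arrays against 6 allow, counting each array as a sample. With the 2 arrays per slide averaged, the adjusted p was 0.000149. Whether this probe lies in the transcript of the transgene is not given in the sources used here, so directions are reported below as the arrays are labelled.

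In limma, with a threshold of 0.05 on the adjusted p and of 2-fold, 7 of the 56 tested member probes were called, from 6 genes. The 5 that rose (8.93%) belonged to BCL2L11 (2 probes), MCL1, CASP8 and TNFRSF10D, and over all 24331 probes tested 3.65% rose by this rule. The 2 that fell (3.57%) belonged to BCL2A1 and XIAP, against 3.37% of all probes. Of these 7 probes, A_23_P152002 of BCL2A1 and the TNFRSF10D probe passed the brightness filter only through the condition in which they were bright. Such a pass favours a difference. Among the 53 member probes bright in both conditions, 4 rose and 1 fell at 2-fold (7.55% and 1.89%), beside 2.71% and 2.72% of 22740 such probes over all genes. These shares describe the list, and nothing particular to it is read from them.

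Whatever the fold, 22 member probes rose (39.3%) and 14 fell (25%) at the adjusted p, and 20 did not pass. Of all probes tested, 29.5% rose and 28.4% fell. The median log2 fold change of the members was 0.01, beside 0.00 for all probes. With scaling on spike-in control probes instead, 17 member probes rose (30.4%) and 2 fell (3.57%) at the adjusted p, beside 20.7% and 6.15% of all probes, and the median of all probes shifted by 0.21. With normexp background correction, the median shifted by -0.13, and 4 member probes rose (7.14%) and 2 fell (3.57%), beside 5.89% and 6.57% of all probes.

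The signals of the 2 conditions did not overlap for 26 of the 56 probes (46.4%), against 40.2% of all probes. When both arrays of a condition were averaged within each slide into 1 sample, all 7 called probes were called again, and 17 probes rose (30.4%) and 11 fell (19.6%) at the adjusted p, beside 19.5% and 19.3% of all probes. The 8 probes that no longer passed belong to BAX, BCL2L11, BBC3, CASP9, CASP4, CYCS, TNFRSF1A and CFLAR. With the slide as a block, 0 probes were lost and 7 more passed, of MCL1, CASP2, CASP10, CASP4, TNFRSF10B, TNFRSF1A and FADD.

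**Figure D1:**
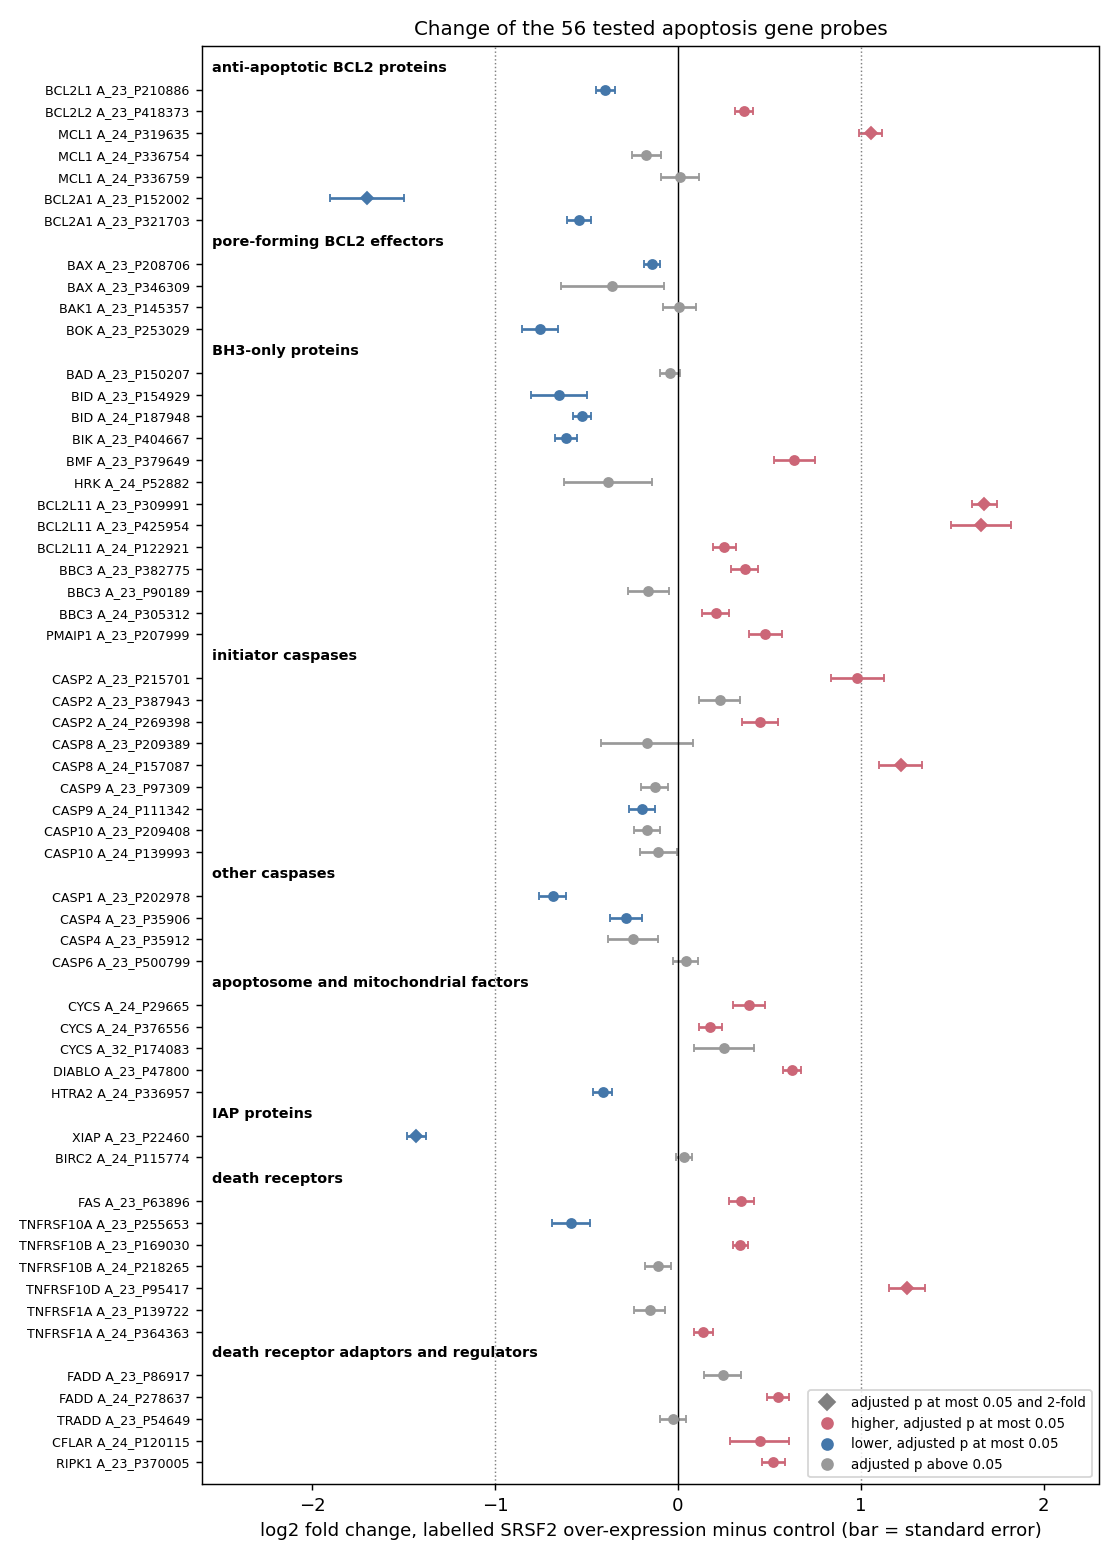
Log2 fold change (horizontal axis, labelled SRSF2 over-expression minus control) with its standard error for each of the 56 tested member probes, ordered by role, with dotted lines at 2-fold. The 7 diamonds are the probes called at 2-fold, from -1.70 for BCL2A1 to 1.68 for BCL2L11. In MCL1 and CASP8 a diamond stands beside probes of the same gene that did not pass the adjusted p. In BCL2L11 the diamonds stand beside A_24_P122921, which rose by 0.25.

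The region before the transcription start is shown for BCL2L11, whose tested probes all rose, and BCL2A1, whose probes both fell. The 250 bases before the start come from RefSeq's GRCh38.p14 annotation, at chr2:111120664-111120913 on the plus strand for BCL2L11 and chr15:79971197-79971446 on the minus strand for BCL2A1. They are written 5′ to 3′ with motif matches in capitals. Both strands were searched for GTAAACA, a core bound by FOXO factors, for TATAAA, the TATA box, and for CCAAT, and no 2 matches overlapped.
BCL2L11: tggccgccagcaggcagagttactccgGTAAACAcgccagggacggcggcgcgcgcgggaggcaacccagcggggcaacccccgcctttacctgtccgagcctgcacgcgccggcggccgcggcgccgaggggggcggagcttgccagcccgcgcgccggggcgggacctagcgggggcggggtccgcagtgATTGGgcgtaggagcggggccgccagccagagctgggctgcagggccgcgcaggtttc
BCL2A1: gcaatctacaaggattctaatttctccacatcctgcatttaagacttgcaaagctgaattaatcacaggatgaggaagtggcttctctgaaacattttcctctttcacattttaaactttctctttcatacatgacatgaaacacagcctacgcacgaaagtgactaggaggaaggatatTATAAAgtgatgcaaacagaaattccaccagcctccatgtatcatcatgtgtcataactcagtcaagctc
The BCL2L11 stretch holds GTAAACA at 223 to 217 bases before the start, a match found in 2.98% of 35116 stretches of this length, and CCAAT on the minus strand (printed as ATTGG) at 58 to 54 bases, found in 32.0%. The BCL2A1 stretch holds TATAAA at 70 to 65 bases before the start, found in 10.72%. These matches describe the letters only, and no binding was measured.

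Among the anti-apoptotic BCL2 proteins, MCL1 had a probe that rose and BCL2A1 probes that fell. The list of 5 genes has 9 probes, of which 7 were tested: 2 rose, 3 fell and 2 did not pass. MCL1, a short-lived protein that binds BAK1 and BH3-only proteins, is spliced into a long anti-apoptotic and a short pro-apoptotic form. Its probe A_24_P319635 lay between -1.33 and -1.11 in control (median -1.25) and from -0.33 to -0.06 (median -0.20) on arrays labelled SRSF2 over-expression. The conditions were fully apart, with a log2 fold change of 1.05 ± 0.06 (SE, adjusted p = 2.29e-08), or 2.08-fold.

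The other MCL1 probes did not follow. A_24_P336754 ranged from 5.42 to 5.71 (median 5.53) in control and from 5.24 to 5.59 (median 5.32) in the other condition, a log2 fold change of -0.17 ± 0.08 (SE, adjusted p = 0.0787). Its arrays overlapped, and its adjusted p was 0.000839 with the slide as a block and 0.00532 with the replicate number as a block, for the same change. A_24_P336759 ranged from 1.55 to 1.92 (median 1.80) in control and from 1.49 to 1.99 (median 1.82) in the other, and its log2 fold change of 0.01 ± 0.10 (SE, adjusted p = 0.933) changed sign under 4 of the alternatives. All 3 probes carry the same RefSeq accession and were well above background on all 12 arrays.

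BCL2A1, an NF-kB-responsive inhibitor of apoptosis, fell at both of its probes. A_23_P152002 lay between -3.88 and -3.29 (median -3.41) in control and from -5.98 to -4.69 (median -5.03) under the SRSF2 over-expression label. The conditions did not overlap (log2 fold change -1.70 ± 0.20, adjusted p = 1.24e-05). It exceeded background clearly on 5 control arrays but on only 2 of the other 6. It passed the brightness filter through control alone, so its fall is given as a bound: at least 2.31-fold higher in control. The bound holds only for signals as processed here, since the log2 fold change was -0.82 with no background subtraction and -0.85 with normexp. The second probe, A_23_P321703, was bright on all arrays and fell from 2.45 to 2.57 (median 2.5) in control to 1.85 to 2.18 (median 1.90), without overlap. Its log2 fold change was -0.54 ± 0.07 (SE, adjusted p = 1.34e-05), or 1.45-fold.

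BCL2L1 and BCL2L2 moved in opposite directions by less than 1.5-fold. The probe annotated to the transcript of the long, anti-apoptotic BCL2L1 form fell by 0.40 on the log2 scale (SE 0.05, adjusted p = 3.33e-05), and the BCL2L2 probe rose by 0.36 (SE 0.05, adjusted p = 3.47e-05), both without overlap. The probe annotated to the short BCL2L1 form cleared the background on 2 of 6 control arrays and 3 of the others and was not tested. The BCL2 probe was well above background on 0 of 12 arrays.

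The effectors of the BAX type, which open the mitochondrial outer membrane, had 4 tested probes, of which 2 fell and 2 did not pass. BOK, the relative of BAX and BAK1, fell from 1.27 to 1.71 (median 1.53) in control to 0.56 to 1.05 (median 0.72). The arrays were fully apart, with a log2 fold change of -0.76 ± 0.10 (SE, adjusted p = 2.96e-05). BAX was read by probes of different transcripts, of which A_23_P208706 fell by 0.14 (SE 0.05, adjusted p = 0.0187, or 0.249 with the arrays averaged per slide), a change that turned to 0.07 with spike-in scaling. The other BAX probe gave -0.36 ± 0.28 (SE, adjusted p = 0.303), and BAK1 gave 0.01 ± 0.09 (SE, adjusted p = 0.959).

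The BH3-only proteins, the sensors that start the mitochondrial route, gave both of the largest rises. The list of 8 genes has 15 probes, of which 13 were tested: 7 rose, 3 fell and 3 did not pass. BCL2L11 encodes BIM, which binds all anti-apoptotic BCL2 proteins and is made in extra-long, long and short splice forms. Its probe A_23_P309991 lay between -3.04 and -2.66 (median -2.94) in control and from -1.32 to -1.14 (median -1.25) under the SRSF2 over-expression label. Control arrays were all lower, and the log2 fold change was 1.68 ± 0.07 (SE, adjusted p = 1.09e-09), or 3.20-fold.

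A_23_P425954 gave nearly the same change for BCL2L11. It ranged from -2.92 to -2.49 (median -2.73) in control and from -1.90 to -0.81 (median -0.90) in the other condition. The groups did not overlap although 1 array stood below the rest of its condition, and the log2 fold change was 1.66 ± 0.16 (SE, adjusted p = 2.38e-06). The remaining tested probe, A_24_P122921, rose far less, from 1.26 to 1.5 (median 1.42) to 1.57 to 1.81 (median 1.61). Its log2 fold change of 0.25 ± 0.06 (SE, adjusted p = 0.00411) was also without overlap, with an adjusted p of 0.0968 when the arrays were averaged per slide. The dimmest, A_23_P154426, cleared the background on 0 of 6 control arrays and 3 of 6 others, and was not tested.

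**Figure D2:**
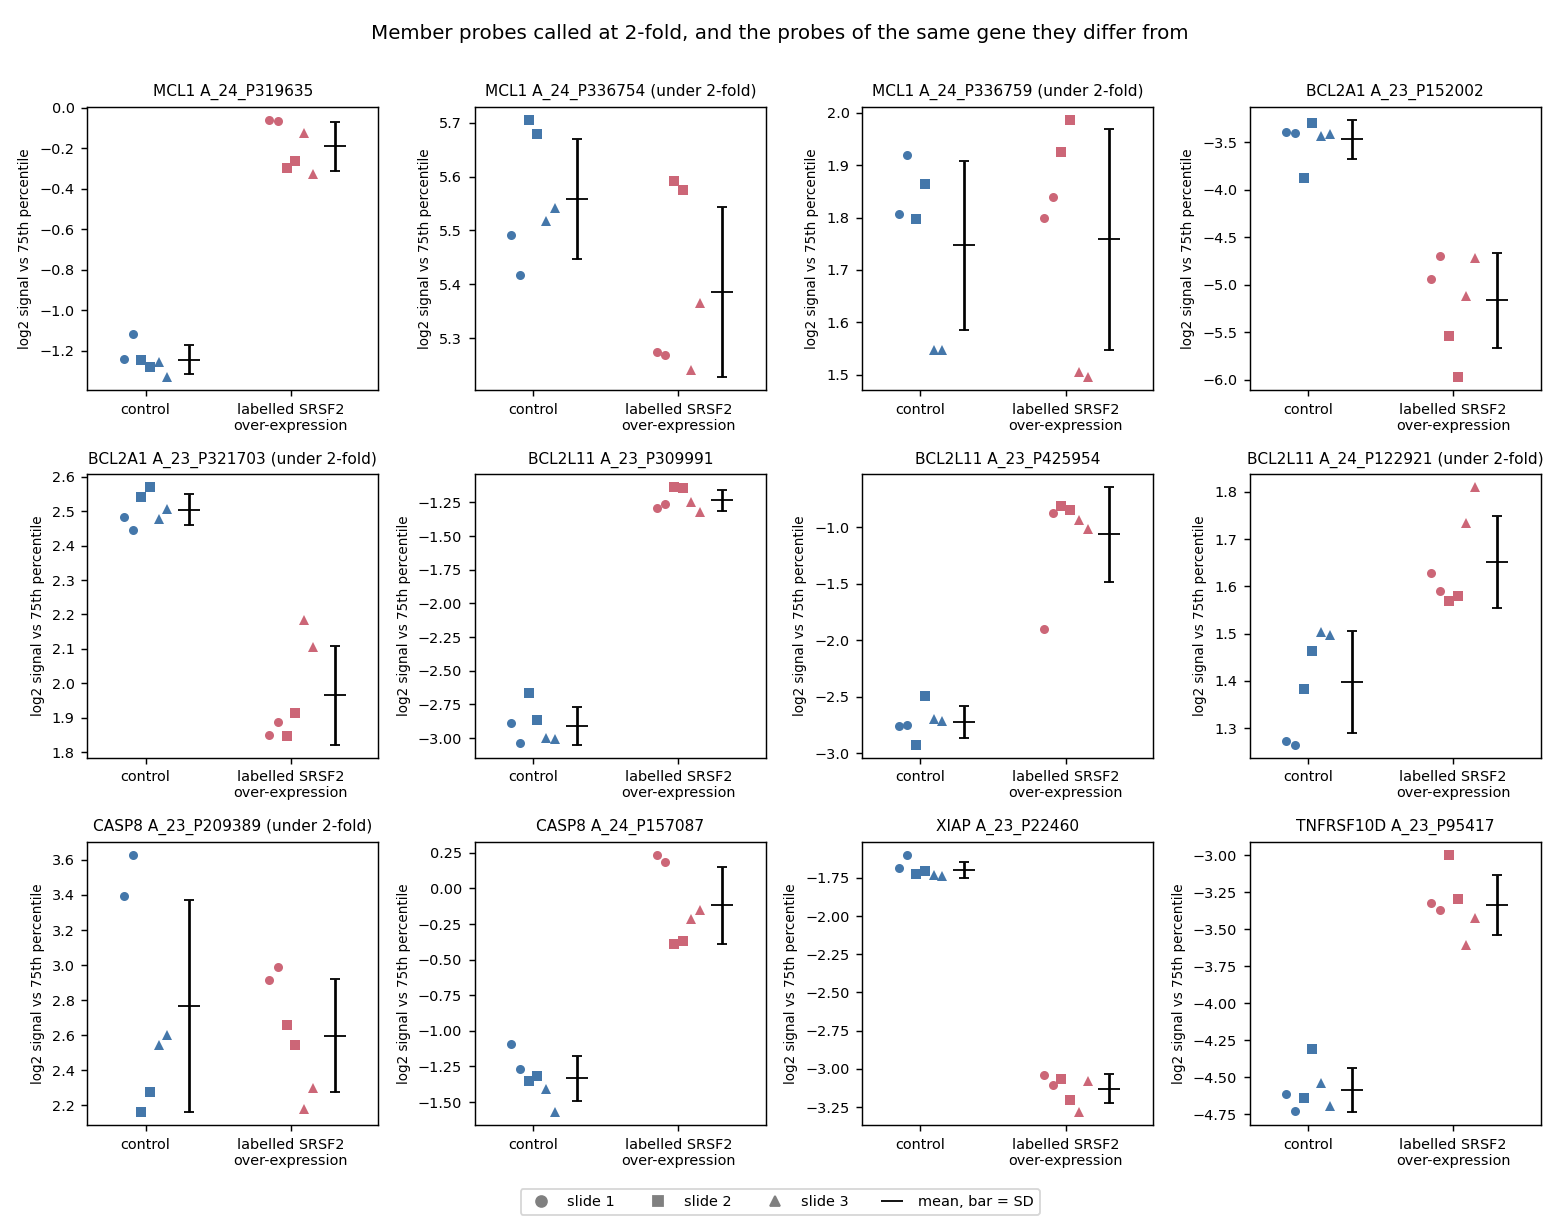
Log2 signal against the array's 75th percentile (vertical axis, own scale in each panel) on every array, for the 7 called probes and the 5 probes of the same genes that changed unequally; points are arrays, with a shape for each slide, and the bar beside them is the mean with its SD. The called probes separate the conditions completely on all slides, whereas MCL1 A_24_P336754 and A_24_P336759 and CASP8 A_23_P209389 overlap.

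Other BH3-only genes moved less and in both directions. BMF, which is held at the cytoskeleton until cells detach or are stressed, rose from -2.06 to -1.30 (median -1.87) in control to -1.30 to -1.07 (median -1.15). The conditions touch at their edges but do not overlap, with a log2 fold change of 0.64 ± 0.11 (SE, adjusted p = 0.000358). PMAIP1, the p53 target NOXA, rose by 0.48 (SE 0.09, adjusted p = 0.000561). BBC3, the p53 target PUMA, rose at A_23_P382775 by 0.37 (SE 0.07, adjusted p = 0.000921). A rise of 0.21 at its probe A_24_P305312 (adjusted p = 0.0335) was lost with the replicate block (adjusted p = 0.0597) and with the arrays averaged per slide (adjusted p = 0.154), and turned to -0.12 with normexp, and its last probe gave -0.16 ± 0.11 (SE, adjusted p = 0.245).

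BIK and BID fell. BIK, a BH3-only protein of the endoplasmic reticulum, lay between 1.28 and 1.52 (median 1.37) in control and between 0.67 and 0.94 (median 0.75) in the other condition. All control arrays were higher, and the log2 fold change was -0.61 ± 0.06 (SE, adjusted p = 2.35e-06). BID, which CASP8 cleaves to link the receptor route to mitochondria, fell at both probes.

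BID probe A_23_P154929 ranged from 0.53 to 1.59 (median 1.44) in control and from 0.53 to 0.80 (median 0.59) in the other condition, with a log2 fold change of -0.65 ± 0.15 (SE, adjusted p = 0.00275). The overlap came from 1 low control array, and without slide 2 the adjusted p was 0.0615. The other BID probe fell by 0.53 (SE 0.05, adjusted p = 1.79e-06) without overlap. BAD, which survival kinases inactivate, gave -0.04 ± 0.05 (SE, adjusted p = 0.545). HRK, a BH3-only protein best known from neurons, gave -0.38 ± 0.24 (SE, adjusted p = 0.197) at its tested probe and was dim at the other. Within slides the tested HRK probe differed by -0.79, 0.40 and -0.75, so its direction was not the same on all slides.

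Of the initiator caspases, CASP8 and CASP2 had a probe near or above a 2-fold rise while their other probes changed less. The 4 genes have 10 probes, of which 9 were tested: 3 rose, 1 fell and 5 did not pass. CASP8, the initiator of the receptor route, lay at A_24_P157087 between -1.57 and -1.09 (median -1.33) in control and from -0.39 to 0.24 (median -0.18) under the SRSF2 over-expression label. The conditions were apart, with a log2 fold change of 1.22 ± 0.12 (SE, adjusted p = 2.21e-06). The second CASP8 probe, A_23_P209389, ranged from 2.16 to 3.63 (median 2.57) in control and from 2.18 to 2.99 (median 2.60) in the other. It overlapped throughout (-0.17 ± 0.25, adjusted p = 0.593), and the sign turned without slide 1, whose control arrays were the highest.

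CASP2 rose at 2 of its 3 tested probes. A_23_P215701 lay between -5.02 and -4.12 (median -4.57) in control and between -3.76 and -3.36 (median -3.54) in the other condition, without overlap. It cleared the background on 2 of 6 control arrays and 5 of the others, so it passed the filter through the brighter condition alone. As processed here, it was at least 1.73-fold higher there as a bound. The fitted log2 fold change was 0.98 ± 0.15 (SE, adjusted p = 7.88e-05). It was 0.39 with no background subtraction and turned to -0.12 with normexp. A_24_P269398 rose by 0.45 (SE 0.10, adjusted p = 0.00177) with overlapping arrays, and the last probe gave 0.23 ± 0.11 (SE, adjusted p = 0.0993, or 0.000993 with the slide and 0.00403 with the replicate number as a block).

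CASP9 and CASP10 changed little. CASP9, which the apoptosome activates, fell at A_24_P111342 by 0.20 (SE 0.07, adjusted p = 0.0302, or 0.206 with the arrays averaged per slide), a change that turned to 0.02 with spike-in scaling, and gave -0.13 ± 0.07 (SE, adjusted p = 0.148) at its other probe. The tested probes of CASP10, the relative of CASP8, gave -0.17 ± 0.07 (SE, adjusted p = 0.0641, or 0.0152 with the slide and 0.0470 with the replicate number as a block) and -0.11 ± 0.10 (SE, adjusted p = 0.402).

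Of the other caspases, 2 of 4 tested probes fell and 2 did not pass. CASP1, the inflammasome caspase, lay between -2.64 and -2.37 (median -2.58) in control and between -3.47 and -3.02 (median -3.21) in the other condition. Its arrays did not overlap, with a log2 fold change of -0.69 ± 0.07 (SE, adjusted p = 5.56e-06). CASP4, which senses bacterial lipopolysaccharide, fell by 0.28 (SE 0.09, adjusted p = 0.0130, or 0.127 with the arrays averaged per slide) at A_23_P35906. It gave -0.24 ± 0.14 (SE, adjusted p = 0.144, or 0.0407 with the slide as a block) at A_23_P35912. CASP6, an executioner, gave 0.04 ± 0.07 (SE, adjusted p = 0.629).

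Among the mitochondrial factors, 3 of 5 tested probes rose and 1 fell. DIABLO, which leaves mitochondria and blocks IAP proteins, lay between 2.27 and 2.42 (median 2.32) in control and between 2.86 and 3.04 (median 2.98) in the other condition. The arrays were fully apart, and the log2 fold change was 0.62 ± 0.05 (SE, adjusted p = 2.83e-07). HTRA2, a protease that also binds IAP proteins, fell by 0.41 (SE 0.05, adjusted p = 1.85e-05). CYCS, cytochrome c, rose by 0.39 (SE 0.09, adjusted p = 0.00174) and 0.18 (SE 0.06, adjusted p = 0.0249, or 0.206 with the arrays averaged per slide) at 2 of its 3 probes, the first of which turned to -0.11 with normexp. The APAF1 probe cleared the background on 1 of 6 control arrays and 2 of the others.

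XIAP, an IAP protein that binds and inhibits caspases, had the fall with the lowest adjusted p of the members. Its probe lay between -1.74 and -1.60 (median -1.72) in control and from -3.28 to -3.04 (median -3.09) under the SRSF2 over-expression label. The 6 control arrays were all higher, with a log2 fold change of -1.43 ± 0.05 (SE, adjusted p = 5.41e-10), or 2.70-fold, and within slides the difference was -1.43, -1.42 and -1.44. BIRC2, a ubiquitin ligase of the TNF receptor complex, gave 0.03 ± 0.05 (SE, adjusted p = 0.554).

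The death receptors gave 4 rises, 1 fall and 2 probes that did not pass. TNFRSF10D, a decoy receptor for TRAIL that lacks a working death domain, lay between -4.73 and -4.31 (median -4.63) in control and between -3.60 and -2.99 (median -3.35) in the other condition. The conditions were apart, with a log2 fold change of 1.25 ± 0.10 (SE, adjusted p = 2.80e-07) that turned to -0.06 with normexp. It cleared the background on 4 of 6 control arrays and all 6 others, so that it passed the filter through the brighter condition. As processed here it was at least 2.19-fold higher there, but with no background subtraction the log2 fold change was 0.64. Of the signalling TRAIL receptors, TNFRSF10A fell by 0.58 (SE 0.10, adjusted p = 0.000336), without overlap and just under 1.5-fold. TNFRSF10B rose by 0.34 (SE 0.04, adjusted p = 1.32e-05) at A_23_P169030 and gave -0.11 ± 0.07 (SE, adjusted p = 0.210, or 0.00189 with the slide and 0.0186 with the replicate number as a block) at A_24_P218265.

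FAS, the receptor of FAS ligand, whose splicing gives a membrane and a soluble form, rose by 0.35 (SE 0.07, adjusted p = 0.000585), a change that turned to -0.04 with normexp. TNFRSF1A, a receptor of TNF, rose by 0.14 (SE 0.05, adjusted p = 0.0394, or 0.288 with the arrays averaged per slide) at A_24_P364363. It gave -0.15 ± 0.09 (SE, adjusted p = 0.144, or 0.00551 with the slide and 0.0257 with the replicate number as a block) at A_23_P139722. Of the adaptors and regulators, 3 of 5 probes rose and 0 fell at the adjusted p. FADD, which joins receptors to CASP8, rose by 0.55 (SE 0.06, adjusted p = 6.87e-06) at A_24_P278637 and gave 0.25 ± 0.10 (SE, adjusted p = 0.0531, or 0.0151 with the slide and 0.0289 with the replicate number as a block) at its other probe. RIPK1, a kinase of the TNF receptor complex, rose by 0.52 (SE 0.06, adjusted p = 1.38e-05), and TRADD, an adaptor of TNFRSF1A, gave -0.03 ± 0.07 (SE, adjusted p = 0.768). CFLAR, the inhibitor of CASP8 activation, rose by 0.45 (SE 0.16, adjusted p = 0.0295, or 0.155 with the arrays averaged per slide) with overlapping arrays, and the change turned to -0.16 with normexp.

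Whether probes of a gene changed unequally was tested on the difference of their log2 signals on each array. Of the 38 genes, 17 have several probes, and 15 gave 25 pairs of tested probes, 24 of which share a RefSeq accession. With the same thresholds on the adjusted p and the difference, 6 pairs of 4 genes were called (24.0%), against 7.87% of 6319 pairs over all genes. The genes were MCL1, BCL2A1, BCL2L11 and CASP8, and in MCL1 and BCL2L11 the called pairs share a probe. The BCL2A1 pair rests on the probe that passed the filter through control alone, and among probes bright in both conditions 5 of 22 member pairs were called (22.7%), beside 6.47% of 5764 pairs. Nothing particular to the members is read from these shares.

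In BCL2L11, A_23_P309991 rose more than A_24_P122921 by 1.42 ± 0.10 (SE, adjusted p = 1.88e-07), and A_23_P425954 did so by 1.40 ± 0.17 (SE, adjusted p = 3.04e-05). The 2 probes with the large rise differed from each other by 0.02 ± 0.17 (SE, adjusted p = 0.952). The gene thus had a pair of probes that changed alike within this error and another that changed by less. In MCL1, A_24_P319635 rose more than A_24_P336754 by 1.23 ± 0.12 (SE, adjusted p = 4.20e-06) and more than A_24_P336759 by 1.04 ± 0.11 (SE, adjusted p = 7.39e-06), and the latter difference was 0.98 without slide 1.

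In CASP8, the difference of A_23_P209389 minus A_24_P157087 was -1.39 ± 0.22 (SE, adjusted p = 0.000267). Taken slide by slide, it was -1.95, -0.57 and -1.64, so its direction was the same within each slide but its size was not. In BCL2A1, A_23_P152002 fell more than A_23_P321703 by 1.16 ± 0.20 (SE, adjusted p = 0.000519), and the difference was -0.99 without slide 2. It was -0.21 (adjusted p = 0.0848) with no background subtraction on the median spot signal, and the first probe cleared the background on 2 of 6 arrays of the condition where it was dim.

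Under 2-fold, 5 more pairs of BBC3, CASP2 and TNFRSF10B passed the adjusted p. CASP2 A_23_P215701, which passed the filter through the brighter condition alone, rose more than A_23_P387943 by 0.75 and than A_24_P269398 by 0.53. The difference from A_23_P387943 had an adjusted p of 0.0705 with the arrays averaged per slide. With no background subtraction these CASP2 differences were 0.23 (adjusted p = 0.0999) and -0.03 (adjusted p = 0.890), and with normexp -0.23 and -0.34. BBC3 A_23_P382775 rose more than A_23_P90189 by 0.53 ± 0.10 (SE, adjusted p = 0.00143, or 0.0579 with the arrays averaged per slide). BBC3 A_23_P90189 minus A_24_P305312 gave -0.37 ± 0.11 (SE, adjusted p = 0.0168, or 0.150 with the arrays averaged per slide). TNFRSF10B A_23_P169030 rose more than A_24_P218265 by 0.45 ± 0.09 (SE, adjusted p = 0.00159, or 0.0670 with the arrays averaged per slide). The remaining 14 pairs did not pass, but some did with a block. The TNFRSF1A pair differed by -0.29 and passed with the slide as a block (adjusted p = 0.000208) or the replicate number (adjusted p = 0.00248), as did the FADD pair at -0.30 (adjusted p = 0.00132 and 0.00749) and that of MCL1 A_24_P336754 and A_24_P336759 at -0.18 (adjusted p = 0.00688 and 0.0134). With the slide as a block, CASP2 A_23_P387943 and A_24_P269398 also differed (-0.22, adjusted p = 0.0235).

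**Figure D3:**
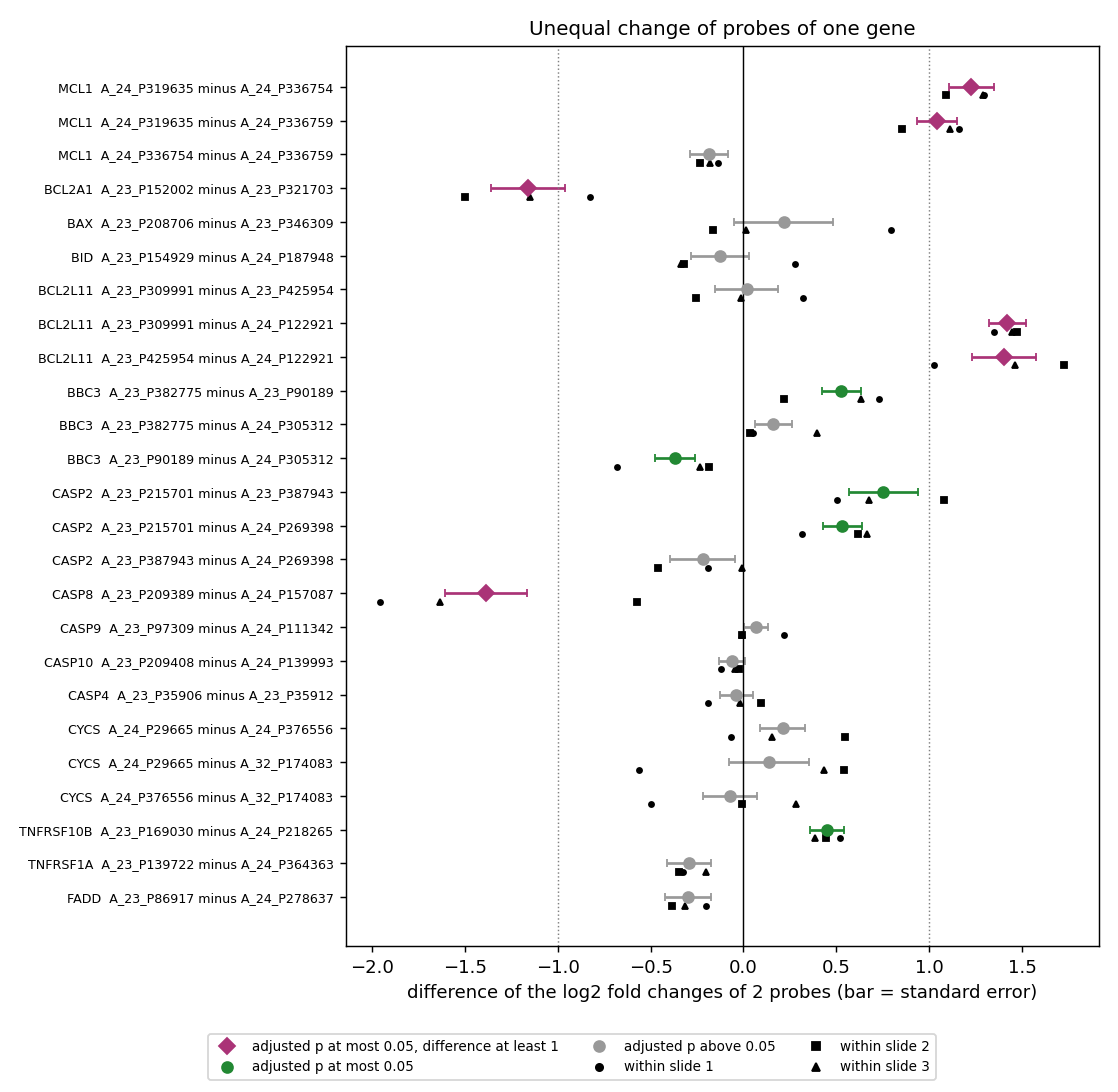
Difference between the log2 fold changes of 2 probes of the same gene (horizontal axis, first probe minus second, bar for the standard error) for the 25 pairs of tested member probes, with small black symbols for the value within each slide. The 6 diamonds past the dotted 2-fold lines belong to MCL1, BCL2A1, BCL2L11 and CASP8, from -1.39 to 1.42.

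The called changes were smaller under both alternatives for the background, which also take the median spot signal in place of the processed one, so that these 2 choices cannot be told apart. With no background subtraction, all 7 probes passed the adjusted p in the same direction and 4 were still called at 2-fold, with log2 fold changes of 1.22 and 1.27 for BCL2L11, 1.16 for CASP8 and -1.10 for XIAP. With normexp, 0 were called at 2-fold in limma (also 0 at an unadjusted p of at most 0.05), the largest being XIAP at -0.98 (adjusted p = 0.0966). CASP8 A_24_P157087 passed the adjusted p alone (0.83, adjusted p = 0.00562), and MCL1 A_24_P319635 gave 0.60 (adjusted p = 0.0573). BCL2L11 gave 0.60 (adjusted p = 0.366) and 0.67 (adjusted p = 0.274), BCL2A1 A_23_P152002 gave -0.85 (adjusted p = 0.391) and TNFRSF10D gave -0.06 (adjusted p = 0.953). The median standard error over the members was 0.18 with normexp and 0.08 as reported.

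**Figure D4:**
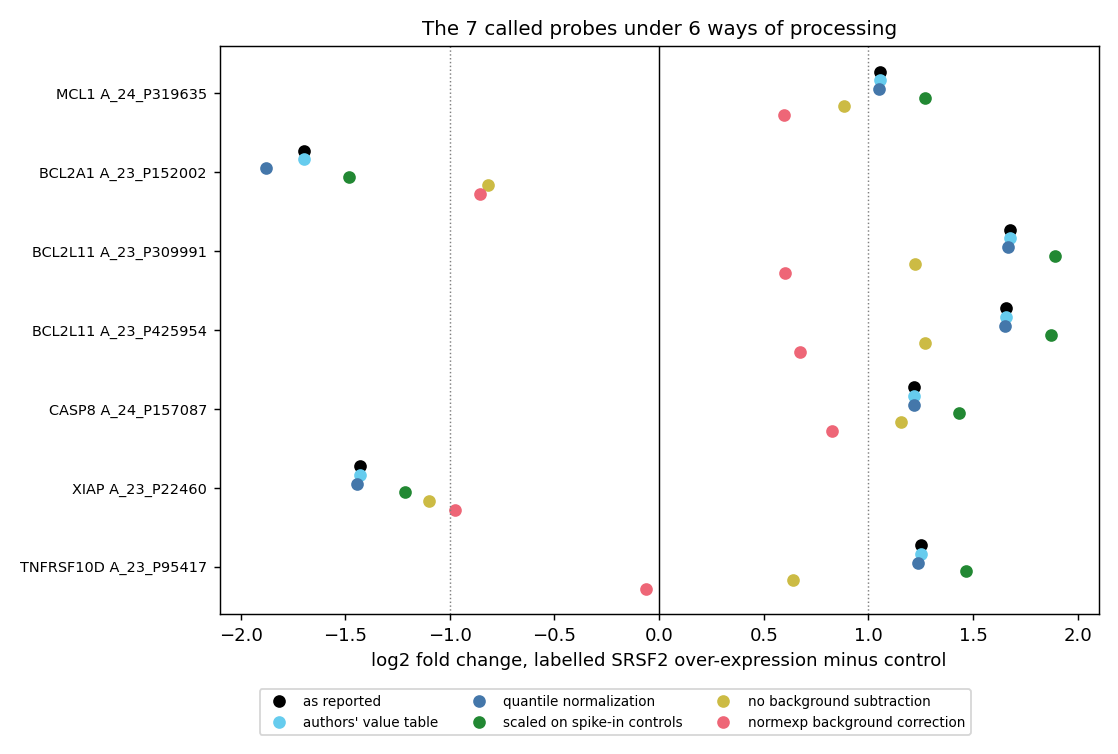
Log2 fold change (horizontal axis) of the 7 called probes as reported and under 5 alternative ways of processing, with dotted lines at 2-fold. Values with the authors' table lie on those reported, spike-in scaling moves all 7 to higher values, and normexp moves all toward 0, past it to -0.06 for TNFRSF10D.

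Other apoptosis genes outside these families' chosen members were described from a second list of 63 genes, of which 60 have 82 probes here and 61 probes were tested. At the adjusted p, 23 rose (37.7%) and 18 fell (29.5%), with a median log2 fold change of 0.10. At 2-fold 3 rose and 3 fell, each 4.92% of the probes tested. BIRC3, the close relative of BIRC2, fell at its probe A_23_P98350 by 1.25 (SE 0.05, adjusted p = 1.01e-09), from 1.14 to 1.19 to -0.22 to 0.05, and MLKL, the executioner of necroptosis, fell by 1.07 (SE 0.06, adjusted p = 9.82e-09) at A_23_P61050 and by 0.92 (SE 0.16, adjusted p = 0.000248) at A_24_P185044. BIRC3 and the first MLKL probe kept their arrays apart and passed the adjusted p with normexp as well.

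The 3 rises of the second list were single probes of TNFRSF21, CARD8 and BCL2L13. TNFRSF21, the death receptor DR6, rose at A_23_P42065 by 1.02 (SE 0.13, adjusted p = 2.74e-05), whereas its other probe, A_23_P30666, gave 0.10 ± 0.05 (SE, adjusted p = 0.131). CARD8, which can form an inflammasome, rose at A_24_P14260, its tested probe, by 1.05 (SE 0.09, adjusted p = 5.76e-07). BCL2L13, a mitochondrial BCL2 relative, rose at A_24_P410389 by 1.10 (SE 0.12, adjusted p = 5.43e-06), and at A_23_P102965 and A_24_P409494 by 0.26 (SE 0.04, adjusted p = 0.000299) and 0.19 (SE 0.05, adjusted p = 0.00864). The differences between these probes were not tested. With normexp the probes with the large rise gave 0.13 (adjusted p = 0.852) for CARD8 and 0.08 (adjusted p = 0.936) for BCL2L13. CARD8 was 0.93 without slide 3, and BCL2L13 A_24_P410389 cleared the background on 5 of 6 control arrays. As processed here, the latter was at least 1.96-fold higher in the other condition, but its log2 fold change was 0.69 with no background subtraction.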

How the data were processed

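The 12 arrays are one-colour 44 k arrays, 6 per condition. The authors deposited Feature Extraction 10.7.3.1 files, in which the processed intensity of a spot is its signal after background subtraction, and a value table. The authors gave the latter as log2, relative to the 75th percentile of each array and centred per probe. The methods name GeneSpring GX 11.0.2 and no normalization. Here, log2 processed signals were averaged per probe, with control and outlier spots left out, and scaled on the 75th percentile of gene probes. Outlier spots were kept when that percentile was taken. A probe was tested when missing on at most 25% of arrays and well above background on 5 of 6 arrays of a condition. Differences were fitted with limma 3.58.1 in R 4.3.3 (lmFit, eBayes) without covariates, with Benjamini-Hochberg adjustment over all 24331 probes, or all 6319 pairs of probes of a gene. Exact permutation tests used all 924 arrangements. On simulated data limma recovered 195 of 200 changed probes and called 0 of the other probes among 23740. The planted changes all exceeded the 2-fold threshold, and noise was drawn independently for each array. The real arrays share labelings and slides, and the simulation does not cover that dependence.

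Accessions were matched to the GRCh38.p14 RefSeq table, which named 23958 of 25868 RefSeq probes. The members and lists were chosen with earlier results of these data known. Some items are not reported here. Full values are given for probes called at 2-fold, for probes of pairs called unequal and for the largest change of genes past 1.5-fold. Figures and summaries used Python 3.11.15, numpy 2.4.6, pandas 2.3.3 and scipy 1.17.1. For a dim probe, the bound sets the mean of the brighter condition against the mean, over arrays of the dimmer, of the higher of its own signal and the lowest signal well above background. The bounds printed above hold for the signals as processed here, and these probes changed less with the other background choices. The number of arrays and the signal over background limit the precision.

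Arrays with the same replicate number deviated together from their condition means in all 6 pairs (correlations from 0.28 to 0.64). Other numbers on the same slide did so as much (0.33 to 0.65) while for other slides the values were -0.48 to -0.05, which makes the number a mark of the slide. Alternatives were scaling on the median, on 7 spike-in probes or by quantiles, normexp (offset 50) or no background subtraction on the median spot signal, since the mean is not among the columns, the authors' table, other filters on dim probes, outlier spots kept, slide or replicate block, the mean of 2 arrays per slide, the methods' t-test, a 1.5-fold threshold and leaving out each slide. Leaving out the 2 arrays with the fewest spots well above background, spike-in scaling without slide 1, and a brightness filter on both conditions, were chosen after seeing the data.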

Additional observations from a re-analysis of the deposited data

Results flagged for a closer look

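In 10 of 112 groups of 6 arrays (56 member probes in 2 conditions), 1 array stood apart from the other 5 by Dixon's criterion, where chance gives about 1 in 20 groups, or 5.6. Control array 2 accounted for 7 of these. It was low for BID A_23_P154929 at 0.53 (others 1.27 to 1.59), for CASP4 A_23_P35912 at 2.82 (others 3.45 to 3.71), for FADD A_23_P86917 at 3.35 (others 3.82 to 4.03), for CYCS A_24_P376556 at 3.14 (others 3.26 to 3.34) and for CYCS A_32_P174083 at -2.45 (others -1.84 to -1.49). It was high for CASP9 A_24_P111342 at -0.17 (others -0.36 to -0.30) and for XIAP at -1.60 (others -1.74 to -1.69).

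The other 3 were control array 1 for BAX A_23_P346309 at 2.20 (others 2.85 to 3.16), control array 3 for BCL2A1 A_23_P152002 at -3.88 (others -3.43 to -3.29), and array 1 labelled SRSF2 over-expression for BCL2L11 A_23_P425954 at -1.90 (others -1.02 to -0.81). Within slides 1, 2 and 3, BAX A_23_P346309 differed by -0.89, 0.06 and -0.24, and CYCS A_32_P174083 by 0.74, 0.01 and 0.00. CASP4 A_23_P35912 differed by -0.06, -0.38 and -0.29. The flagged control arrays of these probes lie on slide 1, and their part in the changes was not tested array by array. Without slide 1, which also holds its flagged array, the change of BCL2L11 A_23_P425954 was larger (1.81).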

How the results depend on the processing

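Of the 39 member probes examined singly, those past the adjusted p and those of unequal pairs, 39 kept direction and side of the threshold with the authors' table, with the methods' t-test and with outlier spots kept, and 37 with the replicate block. With that block, 23 probes rose and 18 fell at the adjusted p, and the 7 calls at 2-fold and 6 unequal pairs remained in number. With normexp, 0 member probes rose and 0 fell by 2-fold, 4 rose and 2 fell at the adjusted p, 0 pairs were unequal (also 0 at an unadjusted p of at most 0.05), and of the second list 0 rose and 1 fell. Without background subtraction the counts were 3 and 1 at 2-fold, 3 unequal pairs and, of the second list, 0 rises (0 also at an unadjusted p). The stricter filter left 1 fall, without the dim BCL2A1 probe, as did the filter on both conditions. Spike-in scaling left 2 falls at the adjusted p, and without slide 1 there were 13 rises and 6 falls. A 1.5-fold threshold gave 8 rises and 6 falls, and 7 and 7 in the second list. Without slide 3, 5 probes of that list fell by 2-fold, MLKL A_24_P185044 and TRAF1 being added. Signs turned with normexp for BBC3 A_24_P305312 (-0.12), CASP2 A_23_P215701 (-0.12), CYCS A_24_P29665 (-0.11), FAS (-0.036), TNFRSF10D (-0.061) and CFLAR (-0.16), and with spike-in scaling for BAX A_23_P208706 (0.074), CASP9 A_24_P111342 (0.020), MCL1 A_24_P336754 (0.043) and CASP8 A_23_P209389 (0.045). CASP8 A_23_P209389 also turned without slide 1 (0.026, and 0.050 with spike-in scaling). MCL1 A_24_P336759 turned with median scaling (-0.0083), no background subtraction (-0.019), without slide 2 (-0.045) and without the 2 arrays with the fewest bright spots (-0.024). The cause of these changes was not tested. Signal over background limits the dim probes, and the number of labelings the rest.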

Other observations

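Of the member probes, 6 were too dim to be tested. The signal of BCL2L11 A_23_P154426 ran from -6.47 to -4.69 in control and from -4.84 to -3.78 under the SRSF2 over-expression label, with overlap, and it was well above background on 0 and 3 of 6 arrays. The probe of the short BCL2L1 form was so on 2 and 3 of 6 arrays. No change is given for either.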
